A study of Danio rerio with 9 samples.

Results

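Gene expression in zebrafish Müller glia was compared between 16 and 8 hours after a light lesion. The comparison used 6 of the 9 libraries of the study, 3 at 16 hours post lesion (hpl) and 3 at 8 hpl, and the 19875 genes of 33737 in the table that had enough counts to be tested. The starting material was neural retina of Tg(gfap:EGFP)mi2002 fish aged 8 to 11 months, from which fluorescent cells were sorted. In this line, which all 3 groups shared, the promoter of the glial gene gfap drives green fluorescent protein. Both lesioned groups had swum freely under light of over 120000 lux for 30 min, and the 3 libraries at 0 hpl came from unlesioned fish. The 0 hpl libraries entered the fit only through the spread between libraries, and their levels are shown beside the others. No unlesioned group was matched to each time, and the hours passed after the lesion cannot be told apart from the hour of collection. Nothing in the labels says that libraries came from separate fish or pools, so the p-values rest on a spread among samples that may be technical.

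Müller glia are the radial glia of the retina, and in zebrafish they can return to the cell cycle after photoreceptors are lost and give rise to new neurons. Cytokines of the interleukin-6 family and leptin act through JAK kinases on the transcription factor Stat3, which is known in fish retina as an early part of this response, together with the factors Ascl1a and Lin28a. Zebrafish tissues also hold clocks that light resets directly, through genes such as per2 and the cryptochromes, and light induces DNA repair enzymes of the same family.

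Relative RNA levels were higher at 16 than at 8 hpl for the signal transducers stat3 and stat1a, the complement gene c7a, the vault protein gene mvp, the protease gene adam8a and the actin scaffold gene palld. Levels of the light-responsive genes lonrf1 and lonrf1l, the porphyrin transporter gene abcb6a, wdr76 and the green cone opsin gene opn1mw3 were lower. In all, 20 genes differed, 12 higher and 8 lower at 16 hpl (edgeR quasi-likelihood test, p-values adjusted by Benjamini-Hochberg across the 19875 genes, threshold 0.05). That is 0.101% of the genes tested, 0.0604% higher and 0.0403% lower. An unadjusted p under 0.05 was found for 2710 genes (13.6%).

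The 6 libraries did not fall into their time groups along the leading axis of variation. Total expected counts ran from 22549034 to 26608088 at 8 hpl and from 11714633 to 22510425 at 16 hpl, with 16 hpl replicate 3 the lowest. On principal component 1 of log2 CPM (counts scaled to library size, TMM-normalised, and not to gene length), which held 41.5% of the variance, 8 hpl replicates 1, 2 and 3 lay at 41.7, −54.8 and 52.1. The 16 hpl replicates 1, 2 and 3 lay at −36.6, 74.9 and −77.2, so that both libraries numbered 2 were on the side of the other time. Principal component 2, with 25.8%, ordered the libraries by time, from −48.8 to −33.2 at 8 hpl and from 22.1 to 75.9 at 16 hpl. Deviations from the group means correlated across genes at −0.425 between the libraries numbered 2. They correlated at 0.294 and 0.333 between 16 hpl replicate 2 and 8 hpl replicates 1 and 3. Deviations cancel out within a group, so these positive values partly follow from the negative one and are no separate evidence. Results are therefore also given from a fit without 8 hpl replicate 2 and 16 hpl replicate 2, called the reduced fit here. Those libraries were singled out with their values known, so p-values of the reduced fit are no independent support.

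**Figure D1:**
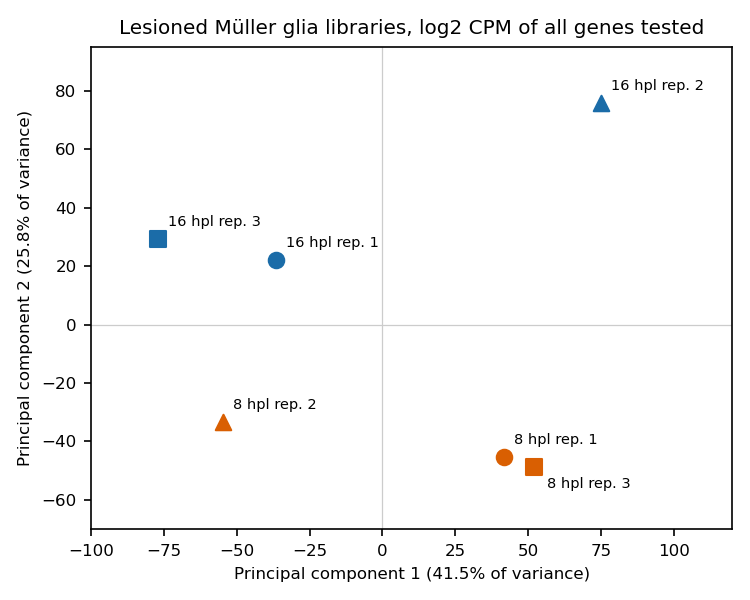
Principal components 1 (x axis, 41.5% of the variance) and 2 (y axis, 25.8%) of log2 CPM of all genes tested, in the 6 lesioned libraries, with 8 hpl in orange and 16 hpl in blue. The libraries numbered 2 (triangles) lie across from the other libraries of their time on component 1, and component 2 separates 8 from 16 hpl.

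Below, CPM values are given in the order of replicates 1, 2 and 3, and log2 fold changes are 16 over 8 hpl with their standard error. Values in brackets after a gene's levels are log2 fold changes from edgeR, with all libraries unless the reduced fit is named. stat3 (ENSDARG00000022712), the transcription factor that interleukin-6 family cytokines and leptin activate, stood at 65, 46.9 and 60.2 CPM at 8 hpl, 143, 176 and 172 CPM at 16 hpl and 14.8, 16.9 and 16 CPM at 0 hpl. All 16 hpl values lay above all 8 hpl values, which in turn lay above 0 hpl (log2 fold change 1.51 ± 0.18, adjusted p = 0.0261). stat1a, which carries interferon signals and can pair with Stat3, stood at 68.7, 72.2 and 72.5 CPM at 8 hpl, 173, 204 and 150.1 CPM at 16 hpl and 51.8, 53.2 and 60.5 CPM at 0 hpl. Its 8 hpl values were close together, just above those at 0 hpl, and the 16 hpl values stood clear of them (log2 fold change 1.3 ± 0.17, adjusted p = 0.0263). For c7a, a gene of complement component C7, which helps form the membrane attack pore, the values were 6.59, 6.43 and 6.27 CPM at 8 hpl, 23.5, 55.1 and 25.7 CPM at 16 hpl and 2.86, 2.55 and 1.5 CPM at 0 hpl. The groups did not overlap, and 16 hpl replicate 2 was the highest (log2 fold change 2.43 ± 0.36, adjusted p = 0.0467). Whether c7a shares reads with C7 (2 of 2), another gene named for this component, was not tested.

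mvp (ENSDARG00000021242), for the main protein of vault particles, was measured at 105, 64.2 and 109.8 CPM at 8 hpl, 334, 598 and 414 CPM at 16 hpl and 18.7, 21.7 and 25.4 CPM at 0 hpl. Its 16 hpl values were all above 8 hpl, with replicate 2 furthest (log2 fold change 2.27 ± 0.29, adjusted p = 0.0263). adam8a, for a membrane-bound metalloprotease of the disintegrin family, was measured at 4.02, 5.39 and 5.95 CPM at 8 hpl, 16.9, 22.6 and 14.3 CPM at 16 hpl and 0.573, 0.804 and 0.695 CPM at 0 hpl, without overlap between any groups (log2 fold change 1.81 ± 0.27, adjusted p = 0.0467). palld, for the actin-binding scaffold palladin, had 21.8, 20.5 and 20.8 CPM at 8 hpl, 42.7, 43.9 and 48 CPM at 16 hpl and 7.27, 8.62 and 7.91 CPM at 0 hpl. This was the smallest of the 20 changes, with no overlap between any groups (log2 fold change 1.09 ± 0.16, adjusted p = 0.0467).

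The other rises with a symbol began from levels at 8 hpl that were near or below those at 0 hpl, except lipib. lipib, named as a lipase gene, stood at 45, 70.4 and 38.2 CPM at 8 hpl, 230.2, 329 and 229 CPM at 16 hpl and 24.1, 20.9 and 17.1 CPM at 0 hpl, with all 16 hpl values above the rest (log2 fold change 2.36 ± 0.27, adjusted p = 0.0261). slc25a22, for a mitochondrial glutamate carrier, stood at 154, 161 and 158 CPM at 8 hpl, 424, 463 and 408 CPM at 16 hpl and 159, 147 and 179 CPM at 0 hpl. Its levels at 0 and 8 hpl overlapped, and those at 16 hpl were far above (log2 fold change 1.45 ± 0.17, adjusted p = 0.0261). dnmt3bb.1, for a de novo DNA methyltransferase, was measured at 2.99, 2.69 and 3.13 CPM at 8 hpl, 8.65, 18.5 and 15 CPM at 16 hpl and 3.32, 4.2 and 2.51 CPM at 0 hpl. Levels at 0 and 8 hpl overlapped here too, below all 16 hpl values (log2 fold change 2.25 ± 0.33, adjusted p = 0.0467). prnpa, a prion protein gene, was lowest at 8 hpl, with 21.1, 28.4 and 19.1 CPM at 8 hpl, 78.7, 96 and 90.2 CPM at 16 hpl and 143, 131 and 220.1 CPM at 0 hpl. Its 16 hpl values lay between those at 8 and at 0 hpl (log2 fold change 1.95 ± 0.24, adjusted p = 0.0263). The last pair of rising genes had no symbol. ENSDARG00000034243 stood at 12.6, 6.11 and 13.5 CPM at 8 hpl, 66.8, 81.8 and 51.9 CPM at 16 hpl and 0.172, 0.491 and 0.428 CPM at 0 hpl (log2 fold change 2.64 ± 0.34, adjusted p = 0.0263). ENSDARG00000070413, with 7.8, 17.9 and 5.64 CPM at 8 hpl, 148, 199 and 114 CPM at 16 hpl and 50.1, 38 and 98 CPM at 0 hpl, was lowest at 8 hpl and had the largest fold change of the 20 genes (log2 fold change 3.87 ± 0.51, adjusted p = 0.0263).

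Of the 8 genes that fell, 6 stood highest at 8 hpl and lower at both 0 and 16 hpl. lonrf1, for a RING finger protein with a LON protease-type domain, had 352, 289.6 and 356 CPM at 8 hpl, 94.8, 61 and 108 CPM at 16 hpl and 74.2, 68.1 and 68.6 CPM at 0 hpl. Its 16 hpl values were nearer to those at 0 hpl than to those at 8 hpl (log2 fold change −1.92 ± 0.23, adjusted p = 0.0261). lonrf1l, a related gene with reads that may be shared with lonrf1, had 1159.5, 497 and 1149.5 CPM at 8 hpl, 175, 179.6 and 187 CPM at 16 hpl and 82.9, 88.2 and 142 CPM at 0 hpl. 8 hpl replicate 2 was less than replicates 1 and 3 but still above every 16 hpl library (log2 fold change −2.37 ± 0.35, adjusted p = 0.0467). wdr76, a WD repeat protein gene, showed the largest fall (log2 fold change −3.2 ± 0.44, adjusted p = 0.0355), with 77.5, 27.4 and 87.3 CPM at 8 hpl, 9.95, 5.45 and 5.36 CPM at 16 hpl and 1.03, 0.715 and 0.642 CPM at 0 hpl. Its lowest value at 8 hpl was again in replicate 2. abcb6a, for a mitochondrial transporter of porphyrins in heme synthesis, had 57.3, 41.6 and 60.2 CPM at 8 hpl, 14.8, 14.2 and 19.5 CPM at 16 hpl and 8.59, 9.25 and 9.73 CPM at 0 hpl (log2 fold change −1.72 ± 0.21, adjusted p = 0.0263). rilp, for a lysosomal partner of Rab7, had 49, 37 and 45.5 CPM at 8 hpl, 17.6, 16.6 and 19.4 CPM at 16 hpl and 18.8, 20.5 and 14.7 CPM at 0 hpl (log2 fold change −1.3 ± 0.19, adjusted p = 0.048). zgc:65997, a gene with no further name, was measured at 79.9, 54 and 77.1 CPM at 8 hpl, 22.9, 14.2 and 15 CPM at 16 hpl and 7.56, 6.3 and 6.84 CPM at 0 hpl (log2 fold change −2.01 ± 0.24, adjusted p = 0.0261). All 6 of these genes kept their 8 and 16 hpl values apart.

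The other falls were from a level at 8 hpl near that at 0 hpl. opn1mw3, for a green cone opsin, stood at 44.6, 39.4 and 41.7 CPM at 8 hpl, 14.7, 13.2 and 18.7 CPM at 16 hpl and 63.6, 56.2 and 44.2 CPM at 0 hpl. The 16 hpl libraries were lowest and did not overlap the others (log2 fold change −1.44 ± 0.20, adjusted p = 0.0355). Near-identical green opsin copies make the assignment of its reads uncertain, and this is a photoreceptor gene, so the RNA need not be from Müller glia. In bulk samples, fewer cells of a type and less RNA per cell cannot be told apart. zgc:171490, with no further name, stood at 15.9, 15.4 and 15.7 CPM at 8 hpl, 5.58, 5.21 and 5.6 CPM at 16 hpl and 15, 11.7 and 15 CPM at 0 hpl, with the libraries of each lesioned group close together (log2 fold change −1.52 ± 0.20, adjusted p = 0.0263).

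**Figure D2:**
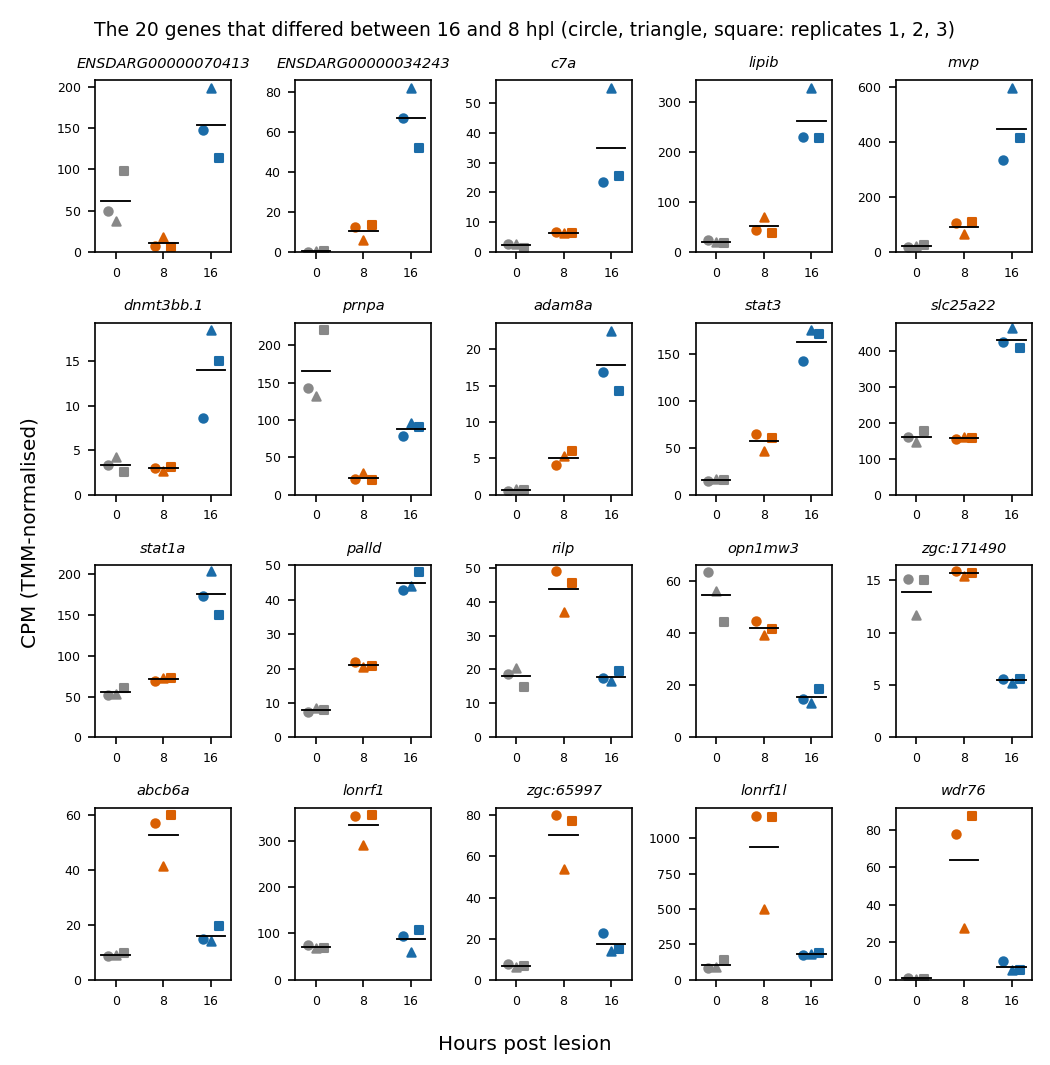
CPM (y axis, linear, from 0, TMM-normalised) against hours post lesion (x axis) for the 20 genes that passed the test between 16 and 8 hpl, ordered by log2 fold change. Points are libraries (circle, triangle and square for replicates 1, 2 and 3) and bars are group means, and in every panel the 8 hpl (orange) and 16 hpl (blue) points do not overlap, with stat3 from 46.9 to 65.0 CPM and from 143 to 176 CPM.

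All 20 genes kept their direction in each of the 23 other settings, but their calls hung on the libraries in the fit. A fit of the 6 lesioned libraries alone called 0 genes with edgeR (1962 at an unadjusted p under 0.05), as did leaving out any 1 of the 9 libraries other than 8 hpl replicate 2 and 16 hpl replicate 2 (1609 to 3056). Leaving out 8 hpl replicate 2 gave 677 genes, leaving out 16 hpl replicate 2 gave 66, and DESeq2 on all 9 libraries called 668 of 18742 genes (3.56%), 299 up (1.6%) and 369 down (1.97%), with the 20 genes among them. In the authors' deposited table, the log2 fold change at 16 hpl minus that at 8 hpl had the same sign for all 20 genes. The 20 genes were picked on libraries of the same study, so the shared sign is close to given and no independent check. In the authors' deposited table stat3 had 3.25 at 16 hpl and 1.97 at 8 hpl, mvp 4.12 and 2.32, and wdr76 3.37 and 6.56.

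The values of the 6 libraries did not overlap between the times for 1688 genes that were higher at 16 hpl (8.49% of those tested) and 1657 that were lower (8.34%), together 16.8%. Such genes are called apart, upwards or downwards, below. The shares of 8.49% and 8.34%, and the 13.6% of genes with an unadjusted p under 0.05, are the background for the list counts below. In the reduced fit 4029 of 20158 genes were called (20.0%), 1967 higher (9.76%) and 2062 lower (10.2%) at 16 hpl. All 20 genes above were among them, with adjusted p from 1.63e-06 to 0.00169. Of the 1964 risers also tested in the fit of all libraries, 480 (24.4%) were likewise higher in 16 hpl replicate 2 than in 8 hpl replicate 2. The other order was seen for 1481, in 770 of them (39.2% of the risers) by more than 1 on the log2 scale. Of 2054 genes that fell, 667 (32.5%) were also lower in the 16 hpl library numbered 2, and 1386 were higher there. Over all genes tested in both fits, 51.0% were higher in 16 hpl replicate 2. In all, 423 genes rose in the reduced fit and were apart upwards over all 6 libraries (2.13%), and 557 fell and were apart downwards (2.8%). The genes named below from the reduced fit come from these sets unless they are said to turn. They were picked for being apart and called there, so neither property is added support for them.

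**Figure D3:**
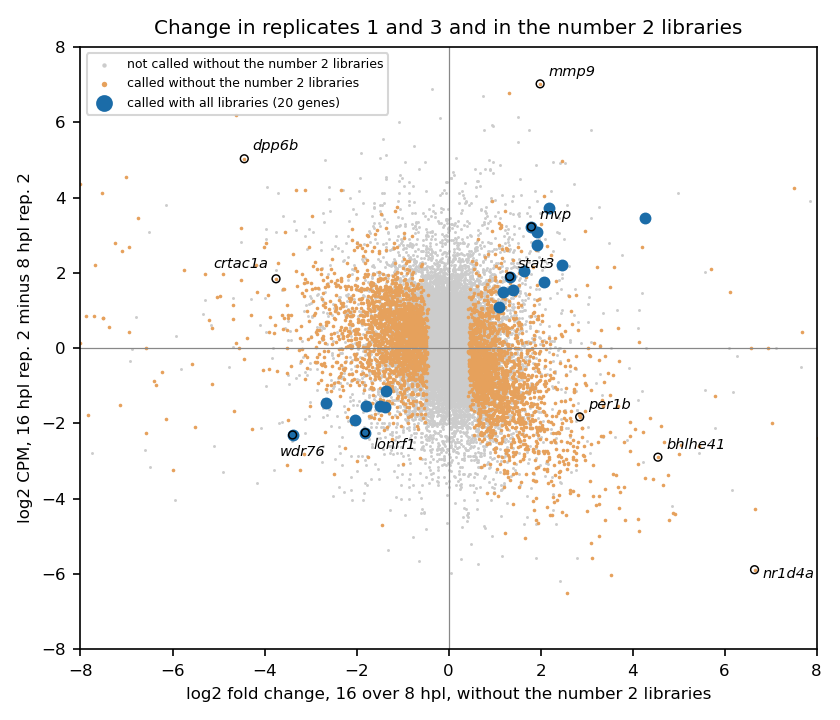
Log2 fold change of 16 over 8 hpl in the fit without the number 2 libraries (x axis) against the log2 CPM of 16 hpl replicate 2 minus 8 hpl replicate 2 (y axis), for the genes tested in both, on axes that end at −8 and 8. Genes called in the reduced fit are orange and the 20 genes called with all libraries are blue: the 20 lie at the lower left and upper right, while per1b, bhlhe41 and nr1d4a lie at the lower right and dpp6b and crtac1a at the upper left.

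Cytokine signalling through JAK and STAT had a median log2 fold change of 0.90 over 27 tested members with all libraries and of 0.46 in the reduced fit, beside 0.01 and −0.01 over all genes. In edgeR 2 members rose and 0 fell, and in DESeq2 9 rose and 1 fell, while 13 were apart upwards and 1 downwards. Among ligands, crlf1a, which encodes a soluble cytokine receptor-like factor, stood at 26.3, 19.8 and 32.9 CPM at 8 hpl and 63.8, 104 and 68.9 CPM at 16 hpl. The leptin gene lepb stood at 8.83, 19.9 and 10.3 CPM at 8 hpl and 54, 30.5 and 46.8 CPM at 16 hpl. Both had every 16 hpl value above every 8 hpl value, crlf1a with its highest and lepb with its lowest 16 hpl value in replicate 2. With all libraries neither passed in edgeR (1.58, adjusted p = 0.094 and 1.75, adjusted p = 0.109) and both rose in DESeq2 (adjusted p = 7.95e-05 and 0.00115). Both also rose in the reduced fit (1.16, adjusted p = 0.00126 and 2.4, adjusted p = 2.31e-05). il11a, for another cytokine of the family, was low throughout, at 0.530, 0.402 and 0.448 CPM at 8 hpl and 1.43, 2.32 and 1.92 CPM at 16 hpl (2.02, adjusted p = 0.116).

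Downstream of the receptors, the kinase gene jak1 stood at 104, 73.8 and 113 CPM at 8 hpl and 144, 370.2 and 164 CPM at 16 hpl (1.22, adjusted p = 0.166). cish, for a feedback inhibitor of STAT signalling, stood at 66.1, 41.1 and 78.8 CPM at 8 hpl and 123, 306 and 100.2 CPM at 16 hpl (1.51, adjusted p = 0.15). Both were highest by far in 16 hpl replicate 2, and both rose in the reduced fit by less (0.50 and 0.63). The inhibitor genes socs3a and socs3b, known Stat3 targets, had the same shape. For socs3a the levels were 50.5, 53.7 and 60.3 CPM at 8 hpl and 92.8, 279 and 98.9 CPM at 16 hpl. For socs3b they were 39.4, 37.4 and 44.1 CPM at 8 hpl and 59.5, 139 and 59.4 CPM at 16 hpl. edgeR called neither with all libraries (adjusted p = 0.183 and 0.207) or in the reduced fit (adjusted p = 0.114 and 0.11). DESeq2 with all libraries called socs3a and not socs3b (adjusted p = 0.019 and 0.0582). pim3, for a survival kinase downstream of STAT3, was measured at 210.1, 259 and 204 CPM at 8 hpl and 116, 73.3 and 109.6 CPM at 16 hpl (−1.17, adjusted p = 0.0994), and fell in the reduced fit (−0.88, adjusted p = 0.00152). Over the list, the mean log2 CPM relative to the 6-library mean was 0.82 in 16 hpl replicate 2, against 0.07 and 0.23 in replicates 1 and 3, and from −0.46 to −0.25 at 8 hpl.

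Complement, a cascade of plasma proteins that mark and pierce cells, had 8 tested members, of which 1 (c7a) rose in edgeR and 4 in DESeq2, and 0 and 0 fell. Over all 6 libraries 4 were apart upwards and 2 downwards. The latter were low genes named for component C3, c3b.2 at 2.24, 3.66 and 1.75 CPM at 8 hpl and 0.562, 0.663 and 1.2 CPM at 16 hpl (−1.68, adjusted p = 0.196) and c3a.3 at 0.530, 0.362 and 0.627 CPM at 8 hpl and 0, 0 and 0 CPM at 16 hpl. c3a.3 fell in the reduced fit (adjusted p = 0.0334), and no fold is given for it since both times are near or at 0. C7 (2 of 2) was measured at 749, 633 and 928 CPM at 8 hpl and 1754, 2895 and 1698 CPM at 16 hpl (1.46, adjusted p = 0.0994). c6, for the pore component that precedes C7, stood at 14.9, 14.8 and 14.5 CPM at 8 hpl and 29.6, 41.9 and 24.9 CPM at 16 hpl (1.13, adjusted p = 0.109). Both kept the times apart, both rose in the reduced fit (1.04 and 0.89), and c6 was nearly the same in all libraries at 8 hpl. Of 27 interferon response genes, 1 (stat1a) rose in edgeR, DESeq2 called 4 up and 0 down, and the median was 0.51 with all libraries and 0.21 in the reduced fit. irf9, for the partner of the STAT proteins in the interferon complex, stood at 43.5, 25 and 46.2 CPM at 8 hpl and 84.1, 134 and 72.1 CPM at 16 hpl (1.34, adjusted p = 0.109). The class I antigen gene mhc1uba stood at 18.6, 51.5 and 22.7 CPM at 8 hpl and 84.5, 100.4 and 64.9 CPM at 16 hpl, and tapbp, which helps load such molecules with peptide, at 2.88, 5.23 and 2.42 CPM at 8 hpl and 8.26, 11.6 and 11 CPM at 16 hpl. These 3 genes were apart between the times and rose in the reduced fit (0.80, 1.85 and 1.85).

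Of 28 NF-kB, cytokine and chemokine genes, edgeR called 0 (3 up and 3 down at an unadjusted p under 0.05) and DESeq2 2 up and 1 down, with a median of 0.36 (0.23 in the reduced fit). The chemokine gene cxcl18b, a neutrophil attractant in fish, stood at 15, 17 and 15.4 CPM at 8 hpl and 65.8, 168 and 56.3 CPM at 16 hpl (2.62, adjusted p = 0.0678). Its 8 hpl libraries were alike, and each 16 hpl library was well above them. tnfrsf1a, for a tumour necrosis factor receptor, stood at 6.52, 4.95 and 5.95 CPM at 8 hpl and 15.5, 15.7 and 9.53 CPM at 16 hpl (1.23, adjusted p = 0.109). nfkbiab, for an inhibitor of NF-kB, stood at 259.7, 198 and 243 CPM at 8 hpl and 140.2, 162 and 116 CPM at 16 hpl and fell in the reduced fit (−0.97, adjusted p = 0.0237). Summed levels of immune cell markers overlapped between the times. Over the 19 tested of 39 listed markers of microglia and macrophages the sum ran from 346 to 395 CPM at 8 hpl and from 347 to 429.6 CPM at 16 hpl. Over 8 tested of 20 neutrophil markers it was 99.3, 73.5 and 95.8 CPM at 8 hpl and 115, 214 and 82.1 CPM at 16 hpl. 16 hpl replicate 2 was highest in both sums. Defining markers that were matched to a gene were low but not at 0. The defining markers mpeg1.1, csf1ra and mpx were not matched, so their levels are not known here. ptprc, of all leukocytes, stood at 2.42, 2.05 and 2.06 CPM at 8 hpl and 1.6, 1.71 and 1.04 CPM at 16 hpl, apart downwards without a call (−0.58, adjusted p = 0.601). lyz, of phagocytes, overlapped, with 1.59, 1.13 and 1.93 CPM at 8 hpl and 3.16, 1.52 and 3.6 CPM at 16 hpl. apoc1 overlapped too, from 5.76 to 18.6 CPM over the 6 libraries, as did lcp1, mmp13a and npsn. p2ry12, of microglia, ran from 0.0448 to 0.322 CPM and was not tested. The part of these cells in the cytokine results was not tested.

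Immediate-early factors, the transcription factors that answer many stimuli first, had 38 tested members and a median of 0.38 (0.18 in the reduced fit). edgeR called 0 of them (9 up and 1 down at an unadjusted p under 0.05), DESeq2 2 up and 1 down, and 11 were apart upwards against 2 downwards. The AP-1 component gene junba stood at 57, 68.5 and 56.5 CPM at 8 hpl and 104, 241 and 127 CPM at 16 hpl (1.37, adjusted p = 0.109). atf3, for a stress-induced partner of AP-1, stood at 45.4, 83.1 and 44.9 CPM at 8 hpl and 87.9, 242 and 83.3 CPM at 16 hpl (1.25, adjusted p = 0.225). In both, 16 hpl replicate 2 was more than 100 CPM above the other libraries, and both rose in the reduced fit (1.02, adjusted p = 0.000641 and 0.92, adjusted p = 0.000538). jun, another component, overlapped between the times, with 682, 1059.9 and 661 CPM at 8 hpl and 689, 1562 and 798 CPM at 16 hpl (0.34, adjusted p = 0.703). The Krüppel-like factor gene klf11a had 108, 84.6 and 117 CPM at 8 hpl and 51.9, 72.6 and 52 CPM at 16 hpl, and fell in the reduced fit (−1.11, adjusted p = 0.000144).

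Genes of glial reprogramming and of neural progenitors were apart in 1 direction: of 41 tested, 11 upwards and 0 downwards, with a median of 0.27 (0.24 in the reduced fit). Over all genes 8.49% were apart upwards and 8.34% downwards. edgeR called 0 with all libraries (10 up and 1 down at an unadjusted p under 0.05) and DESeq2 5 up and 0 down. mmp9, for a matrix metalloprotease made by injured zebrafish Müller glia, stood at 3.14, 2.17 and 6.13 CPM at 8 hpl and 18, 294 and 18.7 CPM at 16 hpl (4.86, adjusted p = 0.109). 16 hpl replicate 2 was far above every other library, and without the number 2 libraries the log2 fold change was 1.99, adjusted p = 0.000747. Of the myc family of growth regulators, mych stood at 26.7, 39 and 29.2 CPM at 8 hpl and 58.8, 110.3 and 50.0 CPM at 16 hpl. Its relative mycb had 46.1, 62.5 and 50.1 CPM at 8 hpl and 87.6, 141 and 87.4 CPM at 16 hpl. Both were apart between the times and rose in the reduced fit (0.96, adjusted p = 0.00161 and 0.86, adjusted p = 0.00135), while myca overlapped (−0.17, adjusted p = 0.788). sox2, for the progenitor factor that Müller glia keep into adult life, stood at 13.3, 17.5 and 18.8 CPM at 8 hpl and 29.1, 26.5 and 30.2 CPM at 16 hpl (0.79, adjusted p = 0.119), a difference as large without the number 2 libraries (0.88, adjusted p = 0.00721). hmga1a, for a chromatin protein, was also apart upwards and rose in the reduced fit (0.68, adjusted p = 0.00462).

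ascl1a and lin28a, among the factors best known from this response, were called by DESeq2 with all libraries (adjusted p = 0.0314 and 0.00397) but not by edgeR, there or in the reduced fit. ascl1a, for the proneural factor needed for regeneration in zebrafish, stood at 4.93, 3.14 and 5.55 CPM at 8 hpl and 9.04, 28.3 and 7.29 CPM at 16 hpl. The 16 hpl values were all above 8 hpl, with replicate 2 by far the highest (1.72, adjusted p = 0.203, and 0.65, adjusted p = 0.222 in the reduced fit). lin28a, for an RNA-binding inhibitor of let-7 maturation, stood at 0.227, 0.362 and 0.537 CPM at 8 hpl and 2.25, 3.74 and 1.76 CPM at 16 hpl, apart between the times but at low levels (2.78, adjusted p = 0.128, and 2.39, adjusted p = 0.0817 in the reduced fit). The repressor gene insm1a and the progenitor factor gene sox11b overlapped (0.10, adjusted p = 0.932 and 0.22, adjusted p = 0.841), as did tgif1, for a homeodomain factor (0.08, adjusted p = 0.927). six3b, for another, was apart upwards, with 148, 158 and 156 CPM at 8 hpl and 219, 187 and 178 CPM at 16 hpl, but was not called in edgeR, DESeq2 or the reduced fit (0.34, adjusted p = 0.431, adjusted p = 0.398 and adjusted p = 0.13). hbegfa, for a growth factor of this response, stood at 1.59, 4.18 and 1.84 CPM at 8 hpl and 4.8, 7.48 and 3.44 CPM at 16 hpl, with 8 hpl replicate 2 inside the 16 hpl range (1.05, adjusted p = 0.371).

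Cell cycle genes did not move together. Of 64 G1/S and replication genes the median was 0.11 with all libraries and −0.24 in the reduced fit, and 0 were called in edgeR (3 up and 3 down at an unadjusted p under 0.05) beside 2 down in DESeq2. An unadjusted p under 0.05 was found for 13.6% of all genes. In the reduced fit 2 of the 64 rose and 10 fell, beside 9.76% and 10.2% of all genes. Of the 10, 8 were higher in 16 hpl than in 8 hpl replicate 2, beside 1386 of 2054 fallers over all genes. rrm1 and rrm2 (ENSDARG00000020711), for subunits of ribonucleotide reductase, which makes DNA precursors, were not among those 8. A second gene with the symbol rrm2 (ENSDARG00000078069) was among them (−1.2, adjusted p = 0.000235 in the reduced fit), and it overlapped between the times. The first rrm2 gene stood at 38.3, 25.6 and 43.6 CPM at 8 hpl and 14.6, 20.7 and 10.7 CPM at 16 hpl. rrm1 stood at 68.9, 43.1 and 79.7 CPM at 8 hpl and 32.1, 40.1 and 34.5 CPM at 16 hpl. For this rrm2 gene and rrm1 the 16 hpl values lay under those at 8 hpl, and both fell in the reduced fit (−1.68, adjusted p = 6.41e-05 and −1.16, adjusted p = 0.000144). pcna, for the replication clamp, stood at 237, 185 and 251 CPM at 8 hpl and 189, 216 and 161 CPM at 16 hpl (−0.25, adjusted p = 0.628), and mki67, a marker of cycling cells, at 33.4, 30.1 and 29.3 CPM at 8 hpl and 24.4, 41.4 and 21.1 CPM at 16 hpl (−0.09, adjusted p = 0.929). Both overlapped between the times. Of 76 G2/M genes, 0 were called (3 up and 3 down at an unadjusted p under 0.05), 1 fell in DESeq2, and the median was 0.14 (0.00 in the reduced fit).

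Genes of the protein-making machinery were highest in 16 hpl replicate 2. Of 90 ribosome biogenesis genes, 30 were apart upwards and 1 downwards, and the median was 0.60 with all libraries but 0.06 in the reduced fit. For 74 cytosolic ribosomal protein genes, 38 were apart upwards and 0 downwards, with medians of 0.71 and 0.18. Their mean log2 CPM relative to the 6-library mean was 1.13 in 16 hpl replicate 2, against −0.06 and −0.23 in replicates 1 and 3 and from −0.30 to −0.25 at 8 hpl. rplp0, for a stalk protein of the large subunit, stood at 1073, 1185 and 1226 CPM at 8 hpl and 1438, 3417 and 1548 CPM at 16 hpl. edgeR called 0 members of either list (35 and 32 up at an unadjusted p under 0.05, 0 down in both), and DESeq2 called 7 up in the first and 0 in the second. Single genes also rose without the number 2 libraries, but they do not speak for their lists. Most ribosome biogenesis genes were not called in the reduced fit. The share of that list that rose there was close to the share of all genes. Another 3 members fell there, surf6, nol8 and nat10. All 3 turned, being higher in 16 hpl than in 8 hpl replicate 2, and 0 were apart downwards. gnl3, for the nucleolar protein nucleostemin, stood at 39.5, 52.2 and 40.4 CPM at 8 hpl and 82.8, 104 and 64.9 CPM at 16 hpl. ncl, for nucleolin, stood at 423, 476 and 456 CPM at 8 hpl and 678, 949 and 659 CPM at 16 hpl. eif4a1a, for a helicase of translation initiation, stood at 216, 264 and 231 CPM at 8 hpl and 374, 682 and 351 CPM at 16 hpl. All 3 were apart between the times and rose in the reduced fit (0.89, 0.60 and 0.70).

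**Figure D4:**
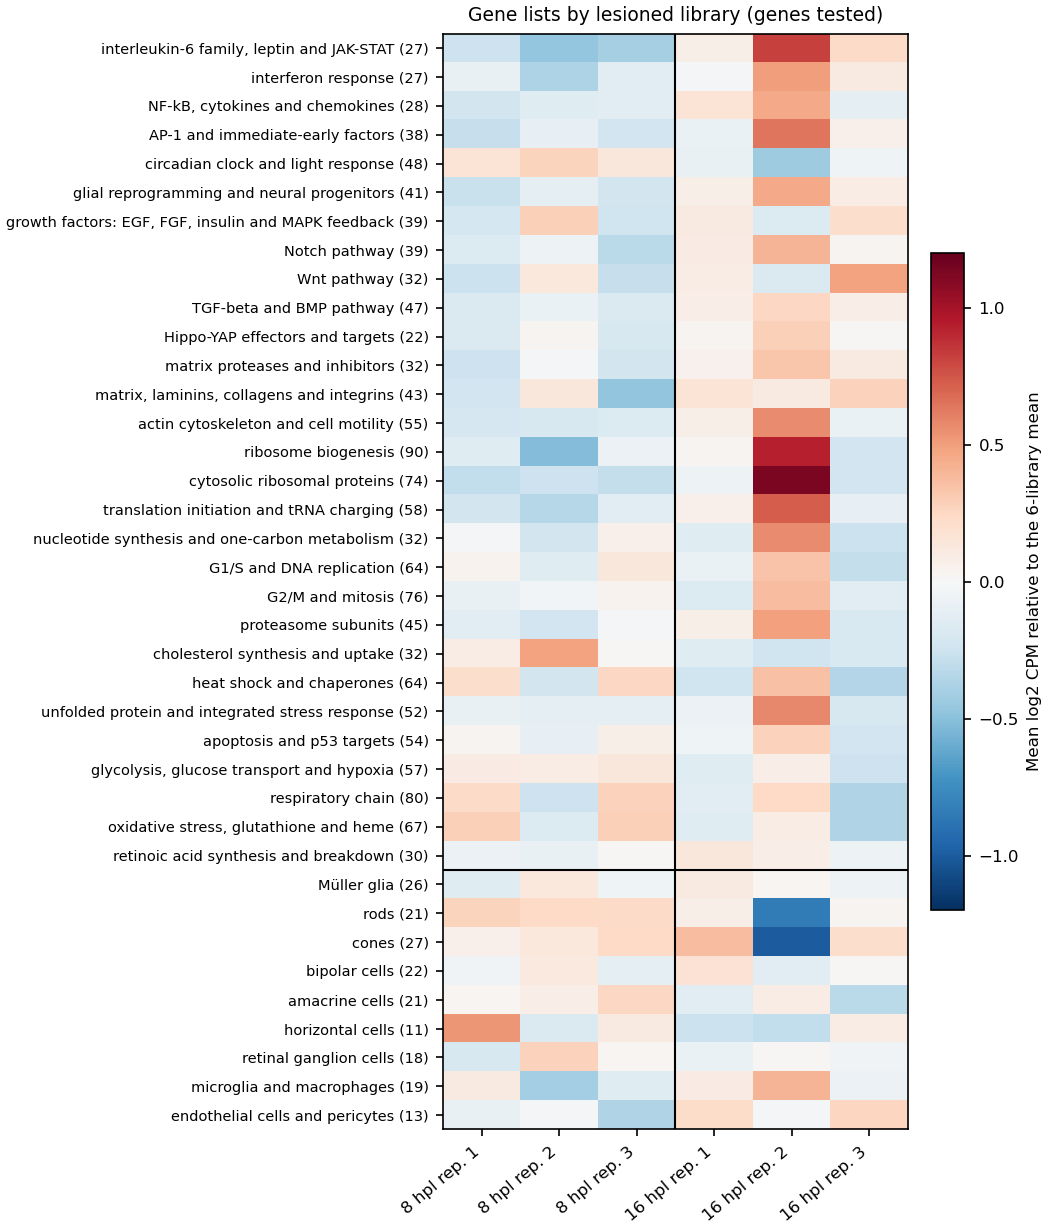
Mean log2 CPM over the tested genes of each list, relative to each gene's mean over the 6 lesioned libraries (colour scale, red higher and blue lower), for the lists with at least 10 tested genes and the 6 libraries (columns), with cell type markers under the horizontal line. 16 hpl replicate 2 stands apart from 16 hpl replicates 1 and 3, at 1.13 for cytosolic ribosomal proteins and −1.0 for cone markers, and the interleukin-6 and JAK-STAT list is lower in all 8 hpl libraries than in all 16 hpl libraries.

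In the actin and motility list, 19 of 55 were apart upwards and 1 downwards, 1 (palld) rose in edgeR and 5 in DESeq2. flna, for the actin cross-linker filamin A, stood at 80.4, 75.5 and 85.1 CPM at 8 hpl and 172, 260.5 and 187 CPM at 16 hpl (1.36, adjusted p = 0.0706). actb1, for beta-actin, stood at 637, 850.4 and 784 CPM at 8 hpl and 1268, 2424 and 1318 CPM at 16 hpl (1.14, adjusted p = 0.134). The keratin gene krt18, for an intermediate filament protein, stood at 10.5, 12.5 and 12.3 CPM at 8 hpl and 24.1, 83.3 and 24.9 CPM at 16 hpl (1.91, adjusted p = 0.116), and its partner krt8 at 117, 200.3 and 113 CPM at 16 hpl (1.22, adjusted p = 0.105). All 4 were apart upwards with their highest value in 16 hpl replicate 2, and each rose in the reduced fit (log2 fold changes of 1.11, 0.86, 1.1 and 1.01). Of 32 genes of matrix proteases and their inhibitors, 1 (adam8a) rose in edgeR and 5 rose and 1 fell in DESeq2. mmp2, for a gelatinase, stood at 13.3, 14.9 and 15 CPM at 8 hpl and 24.6, 22.1 and 23.8 CPM at 16 hpl and rose in the reduced fit (0.77, adjusted p = 0.00962). Among matrix proteins, the basement membrane gene nid1a stood at 6.02, 10.1 and 5.37 CPM at 8 hpl and 23.4, 12 and 17.8 CPM at 16 hpl. The glial and neuronal matrix gene tnr stood at 53, 34.4 and 45.3 CPM at 8 hpl and 17.7, 16 and 24.3 CPM at 16 hpl. In the reduced fit nid1a rose (1.85, adjusted p = 0.000112) and tnr fell (−1.23, adjusted p = 0.00418).

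Signalling lists for growth factors, Wnt, Notch, TGF-beta and Hippo-YAP had 0 members called by edgeR with all libraries. An unadjusted p under 0.05 was reached by 4 upwards and 2 downwards of 39 growth factor genes, with 3 up and 1 down in DESeq2. For 32 Wnt genes these counts were 4 and 1, and 3 and 1 in DESeq2. For 39 Notch genes they were 10 and 0, and 3 and 0. For 47 TGF-beta and BMP genes they were 11 and 3, and 1 and 1, and for 22 Hippo-YAP genes 5 and 0, and 1 and 0. In the reduced fit 9 growth factor genes rose (23.1%) and 1 fell, and 10 Wnt genes rose (31.2%) and 1 fell. Of all genes 9.76% rose there. Of the 9 and the 10, 5 and 7 were lower in 16 hpl than in 8 hpl replicate 2. Over all genes this held for 1481 of 1964 risers. Only 4 of the 9 and 3 of the 10 were apart upwards. dusp5, for a phosphatase that switches off ERK, stood at 35.8, 56 and 33.6 CPM at 8 hpl and 74.9, 73.7 and 69.1 CPM at 16 hpl, above in every 16 hpl library (1.05, adjusted p = 0.00019 in the reduced fit). The receptor gene fgfr1a stood at 4.85, 7.0 and 3.4 CPM at 8 hpl and 12.8, 10.8 and 11.2 CPM at 16 hpl (1.19, adjusted p = 0.134, and 1.54, adjusted p = 0.00236 in the reduced fit). vegfab, for a vascular growth factor induced by low oxygen, stood at 9.93, 3.38 and 10.4 CPM at 8 hpl and 1.73, 1.09 and 0.641 CPM at 16 hpl (−2.74, adjusted p = 0.0986, and −3.01, adjusted p = 0.000208 in the reduced fit). The first pair rose and vegfab fell in that fit. The Wnt effector genes ctnnb1 and ctnnb2, for beta-catenins, had values of 67.7, 73.4 and 69.4 CPM at 8 hpl and 92.7, 114 and 106 CPM at 16 hpl for the first and 79.9, 99.8 and 71 CPM at 8 hpl and 106, 187 and 170.5 CPM at 16 hpl for the second. The low-level ligand gene wnt8a stood at 3.94, 2.45 and 4.66 CPM at 8 hpl and 1.04, 0.616 and 0.801 CPM at 16 hpl and fell in the reduced fit (−2.2, adjusted p = 0.00335), while both catenin genes rose (0.54 and 0.87). id2b, for an inhibitor of basic helix-loop-helix factors and a BMP target, stood at 149, 23.3 and 142 CPM at 8 hpl and 19.6, 19.6 and 14.7 CPM at 16 hpl. Only 8 hpl replicates 1 and 3 were high, with replicate 2 just above the 16 hpl range.

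The clock and light response list had the most calls in the reduced fit of the process lists. With all libraries 0 of 48 rose and 2 (lonrf1 and lonrf1l) fell in edgeR, and 0 rose and 13 fell in DESeq2. The reduced fit called 16 up and 22 down, or 79.2% of the list beside 20.0% of all genes. All 16 of those risers were lower in 16 hpl replicate 2 than in 8 hpl replicate 2, and 13 of the 22 that fell were higher there. Over all genes, 1481 of 1964 risers and 1386 of 2054 fallers turned in this way. Over all 6 libraries 9 genes were apart downwards and 0 upwards, and genes that light induces directly in fish were among the 9. cry5, for a DNA photolyase-type protein, stood at 113, 34.6 and 127 CPM at 8 hpl, 16.4, 26.5 and 16.7 CPM at 16 hpl and 2.41, 2.41 and 1.98 CPM at 0 hpl (−2.2, adjusted p = 0.105, and −2.86, adjusted p = 3.81e-07 in the reduced fit). cry-dash, for another member of the family, stood at 212, 172 and 212 CPM at 8 hpl and 121, 65.7 and 109 CPM at 16 hpl. cry1a, a clock repressor gene, had 866, 714 and 925 CPM at 8 hpl and 482, 342 and 485 CPM at 16 hpl. For xpc, for a DNA damage sensor of nucleotide excision repair, the values were 41.6, 17 and 40.7 CPM at 8 hpl and 8.96, 12.4 and 7.29 CPM at 16 hpl. In all 4 the 16 hpl libraries were lower than all 8 hpl libraries, and all 4 fell in the reduced fit (−0.88, −0.89 and −2.33 for the last 3). For cry5 and xpc, 8 hpl replicate 2 lay nearer to the 16 hpl libraries than to 8 hpl replicates 1 and 3.

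Other clock genes turned in the libraries numbered 2, though not all: the clock genes clocka, cry2b and per2 were apart downwards over all 6 libraries, like cry1a. nr1d4a, for a Rev-erb type nuclear receptor that represses the clock's positive arm, stood at 3.22, 221 and 2.33 CPM at 8 hpl and 262, 3.65 and 302 CPM at 16 hpl. The E-box repressor gene bhlhe41 stood at 85.7, 2125 and 97.2 CPM at 8 hpl and 2264, 285 and 2016 CPM at 16 hpl, and per1a, for a period protein, at 24.2, 538 and 22.5 CPM at 8 hpl and 533, 95.6 and 665 CPM at 16 hpl. In these 3 genes 8 hpl replicate 2 was at the level of 16 hpl replicates 1 and 3, and 16 hpl replicate 2 was at or nearer to the level of 8 hpl replicates 1 and 3. With all libraries edgeR called none (adjusted p = 0.776, 0.764 and 0.709). In the reduced fit they rose by 6.65, 4.55 and 4.68. 8 hpl replicate 2 was low, and 16 hpl replicate 2 was above the other 16 hpl libraries, for rorcb, for an activating nuclear receptor of the ROR family, with 255, 4.66 and 202 CPM at 8 hpl and 1.34, 21.9 and 0.721 CPM at 16 hpl. The repressor gene nfil3-5 had the same order, with 1613, 35.7 and 1649 CPM at 8 hpl and 33, 150.2 and 27.5 CPM at 16 hpl. nr1d1, for a Rev-erb type receptor as well, differed from these, with 86.4, 413 and 86.4 CPM at 8 hpl and 496, 390.4 and 489.5 CPM at 16 hpl. There 8 hpl replicate 2 turned and 16 hpl replicate 2 did not.

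Genes outside the clock list also turned in those libraries. nr2e3, for a nuclear receptor of rod identity, stood at 120.3, 4104 and 136 CPM at 8 hpl and 3341, 329.9 and 3137 CPM at 16 hpl, and dpp6b, for a potassium channel subunit, at 320.2, 11.9 and 343 CPM at 8 hpl and 15.9, 392 and 14.7 CPM at 16 hpl. crtac1a, for a secreted cartilage-type protein, stood at 334, 21.8 and 352 CPM at 8 hpl and 24.2, 78.4 and 26.7 CPM at 16 hpl, where 16 hpl replicate 2 was above the other 16 hpl libraries but far under 8 hpl replicates 1 and 3. The glutamate transporter gene slc1a2a, on the list of Müller glia markers, stood at 36.9, 483 and 36.5 CPM at 8 hpl and 203, 5.16 and 235 CPM at 16 hpl, lowest in 16 hpl replicate 2. edgeR called none of the 4 with all libraries, and in the reduced fit nr2e3 and slc1a2a rose (4.66 and 2.57) and dpp6b and crtac1a fell (−4.44 and −3.75). The part of the hour of collection in these differences was not tested, since the labels give no hour.

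**Figure D5:**
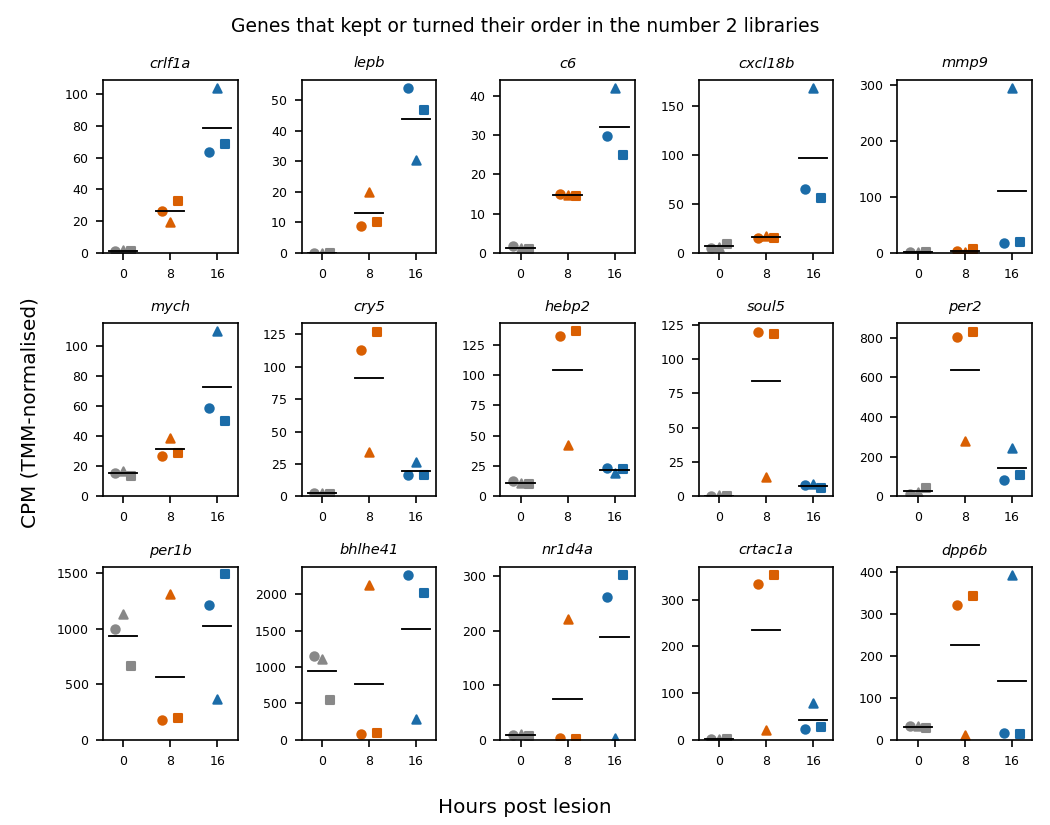
CPM (y axis, linear, from 0, TMM-normalised) against hours post lesion (x axis) for 15 genes, with circles, triangles and squares for replicates 1, 2 and 3 and bars for group means. In the first 2 rows the 16 hpl libraries all lie on 1 side of the 8 hpl libraries. In the last row the triangles of replicate 2 lie across from the other libraries of their time, per1b at 1309 CPM at 8 hpl and 369 CPM at 16 hpl. The exception is crtac1a at 16 hpl, where the triangle (78.4 CPM) stays nearer to the other 16 hpl libraries.

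Genes of heme, glutathione and oxidative stress moved both ways. Of 67 tested, 1 (abcb6a) fell in edgeR and 10 in DESeq2, 0 and 0 rose, and 10 were apart downwards against 8 upwards. The shares over all genes were 8.34% apart downwards and 8.49% upwards. The reduced fit called 4 up (5.97%) and 24 down (35.8%), beside 9.76% and 10.2% of all genes. Of the 24, 15 were higher in 16 hpl than in 8 hpl replicate 2, beside 1386 of 2054 fallers over all genes. The heme-binding protein genes hebp2 and soul5 had values of 132, 42.7 and 136 CPM at 8 hpl and 23.1, 19.2 and 22.6 CPM at 16 hpl for hebp2 and 119.9, 13.9 and 118 CPM at 8 hpl and 8.13, 9.24 and 6.08 CPM at 16 hpl for soul5. Every 16 hpl value was below every 8 hpl value, though 8 hpl replicate 2 was nearer to 16 hpl than replicates 1 and 3 were (−2.26, adjusted p = 0.0706 and −3.42, adjusted p = 0.109). fech, for the enzyme that puts iron into heme, stood at 59.6, 35.9 and 50.3 CPM at 8 hpl and 18.9, 13.3 and 25.1 CPM at 16 hpl (−1.35, adjusted p = 0.106). flvcr1, for a heme exporter, stood at 72.1, 93 and 68.4 CPM at 8 hpl and 35.3, 45.2 and 32.1 CPM at 16 hpl (−1.05, adjusted p = 0.0994). The oxidative stress regulator gene nfe2l2a stood at 66.8, 38.4 and 68.9 CPM at 8 hpl and 30.6, 18.2 and 17.2 CPM at 16 hpl. Its antagonist bach1b had 25.6, 17.8 and 27.6 CPM at 8 hpl and 8.91, 8.38 and 13.8 CPM at 16 hpl. All of these fell in the reduced fit (−2.55, −4.04, −1.33, −1.06, −1.49 and −1.25). Genes of heme breakdown overlapped between the times. hmox1a, for heme oxygenase, stood at 2.24, 4.06 and 4.39 CPM at 8 hpl and 1.9, 3.6 and 2.88 CPM at 16 hpl (−0.35, adjusted p = 0.786). blvra, for biliverdin reductase, stood at 56, 9.61 and 49.5 CPM at 8 hpl and 5.28, 11.8 and 8.09 CPM at 16 hpl (−2.19, adjusted p = 0.137), and only 8 hpl replicates 1 and 3 were high. Among genes apart upwards, slc11a2, for an iron transporter, and gclm, for a subunit of the enzyme that starts glutathione synthesis, rose in the reduced fit (1.19, adjusted p = 0.0154 and 0.72, adjusted p = 0.0175). By contrast tspo, for a porphyrin-binding protein of the outer mitochondrial membrane, was apart downwards. It stood at 50.0, 15 and 57.5 CPM at 8 hpl and 6.36, 10.3 and 6.33 CPM at 16 hpl (−2.41, adjusted p = 0.109). It was called in DESeq2 (adjusted p = 0.000306) and fell in the reduced fit (−3.08, adjusted p = 1.61e-05).

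Sterol genes included more that were lower: of 32 genes of cholesterol synthesis and uptake, 12 were apart downwards and 1 upwards, with a median of −0.30 (−0.17 in the reduced fit). edgeR called 0 (12 down and 0 up at an unadjusted p under 0.05) and DESeq2 5 down and 0 up. srebf1, for the master factor of lipid synthesis genes, stood at 71.4, 76.2 and 60.0 CPM at 8 hpl and 15.6, 16.9 and 34.8 CPM at 16 hpl (−1.63, adjusted p = 0.0994). The low-density lipoprotein receptor gene ldlrb stood at 34.1, 64.3 and 32.3 CPM at 8 hpl and 12.9, 7.58 and 20.8 CPM at 16 hpl (−1.67, adjusted p = 0.116), and the synthesis enzyme gene msmo1 at 59.5, 69.9 and 67.1 CPM at 8 hpl and 28.1, 37.2 and 22.7 CPM at 16 hpl (−1.16, adjusted p = 0.106). All 3 kept the groups apart and fell in the reduced fit (−1.4, −0.99 and −1.31).

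The heat shock and respiratory chain lists differed between fits. Of 64 heat shock and chaperone genes, 21 fell (32.8%) and 4 rose (6.25%) in the reduced fit. The shares over all genes were 10.2% and 9.76%. Of the 21, 17 were higher in 16 hpl than in 8 hpl replicate 2, beside 1386 of 2054 fallers over all genes. hsp90aa1.2, for a stress-inducible HSP90, stood at 2531, 1244 and 2466 CPM at 8 hpl and 363, 916 and 374 CPM at 16 hpl, apart in all libraries (−1.92, adjusted p = 0.116). hspa8, for the constitutive HSP70, stood at 2792, 2001 and 3128 CPM at 8 hpl and 1640.0, 3253 and 1508 CPM at 16 hpl and overlapped (−0.31, adjusted p = 0.76). For 80 respiratory chain genes, 29 fell (36.2%) and 1 rose (1.25%) in the reduced fit, and 25 of the 29 were higher in 16 hpl replicate 2. sdha, for a subunit of succinate dehydrogenase, stood at 899.7, 362 and 942 CPM at 8 hpl and 239, 370.2 and 265 CPM at 16 hpl. There 8 hpl replicates 1 and 3 were high, and 8 hpl replicate 2 lay in the 16 hpl range. edgeR called 0 of these lists with all libraries (6 up and 9 down, and 1 up and 5 down, at an unadjusted p under 0.05), and DESeq2 1 up and 3 down, and 0 and 2. Of 57 genes of glycolysis, glucose transport and hypoxia, 13 were apart downwards (22.8%) and 3 upwards (5.26%). Their median was −0.18 (−0.47 in the reduced fit). edgeR called 0 of them (1 up and 10 down at an unadjusted p under 0.05) and DESeq2 0 up and 4 down. In the reduced fit 9 rose (15.8%) and 19 fell (33.3%), and 9 of the 19 were higher in 16 hpl than in 8 hpl replicate 2.

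Some stress genes kept their order in all 6 libraries. atf5a, for a factor of the integrated stress response, stood at 36.5, 62.9 and 41.3 CPM at 8 hpl and 105, 168 and 107 CPM at 16 hpl (1.43, adjusted p = 0.0994), higher in every 16 hpl library and called in the reduced fit (1.45, adjusted p = 8.79e-05). rrm2b, for the p53-induced subunit of ribonucleotide reductase, stood at 279.6, 125 and 298 CPM at 8 hpl and 99.2, 93 and 76.5 CPM at 16 hpl (−1.38, adjusted p = 0.109), and perp, for a p53-regulated membrane protein of cell death and junctions, at 6.74, 5.11 and 5.37 CPM at 8 hpl and 21.9, 31.1 and 14.3 CPM at 16 hpl (1.97, adjusted p = 0.109). rrm2b fell and perp rose in the reduced fit (−1.71 and 1.58). ndrg1b, named for a stress and low oxygen response gene, stood at 410.4, 309.7 and 435 CPM at 8 hpl and 88.1, 239 and 69.8 CPM at 16 hpl against 25.3, 25.8 and 32.3 CPM at 0 hpl. Its 8 hpl values were the highest, with 16 hpl replicate 2 between (−1.54, adjusted p = 0.153).

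The labelled cell type was checked with its markers. Of 26 Müller glia markers, 0 were called by edgeR (6 up and 2 down at an unadjusted p under 0.05) and 1 was higher in DESeq2, with a median of 0.26 (0.18 in the reduced fit). gfap, for the glial filament protein, stood at 69.7, 97 and 78.2 CPM at 8 hpl, 123, 168 and 108 CPM at 16 hpl and 60.3, 60.2 and 84.6 CPM at 0 hpl. Every 16 hpl value was above every 8 hpl value, without a call (0.70, adjusted p = 0.225) except in the reduced fit (0.65, adjusted p = 0.0251). rlbp1a, for a retinoid-binding protein of these cells, stood at 286, 436 and 319 CPM at 8 hpl and 301, 134 and 259.5 CPM at 16 hpl, with 16 hpl replicate 2 lowest (−0.59, adjusted p = 0.435). apoeb, for a lipid carrier, stood at 731, 761 and 869.7 CPM at 8 hpl and 1153, 1277 and 1050.1 CPM at 16 hpl (0.56, adjusted p = 0.547). These 3 marker genes were well above 0 in every library, but not all markers were: fabp7b ran from 0.805 to 4.38 CPM. Of the 26 markers, 6 were apart upwards (23.1%) and 3 downwards (11.5%), beside 8.49% and 8.34% of all genes. The 3 downwards were ptgdsb, fabp7b and atp1b4. In the reduced fit 5 markers rose and 3 fell. The 26 markers summed to 4120, 4424 and 4644 CPM at 8 hpl and 4570, 6356 and 4058 CPM at 16 hpl. The sum over rod markers, given below, was far higher in every library. Marker levels therefore do not show how pure the sorted cells were.

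Photoreceptor RNA was present in all libraries, and the sum over rod markers was lower in each 16 hpl library than in each 8 hpl library. The summed level of 21 tested rod markers was 111622, 106394 and 107321 CPM at 8 hpl and 76962, 48588 and 83985 CPM at 16 hpl, lowest in 16 hpl replicate 2. rho, for rod opsin, stood at 54808, 58533 and 50304 CPM at 8 hpl and 34783, 21248 and 46602 CPM at 16 hpl (−0.67, adjusted p = 0.476, and −0.37, adjusted p = 0.43 in the reduced fit). pde6b, for a subunit of the rod phosphodiesterase, stood at 5067, 2806 and 4654 CPM at 8 hpl and 2028, 1362 and 1963 CPM at 16 hpl (−1.23, adjusted p = 0.142), and the partner subunit gene pde6a at 4266, 3602 and 4343 CPM at 8 hpl and 2417, 2209.6 and 2364 CPM at 16 hpl (−0.80, adjusted p = 0.228). All 3 were lower in every 16 hpl library, and pde6b and pde6a fell in the reduced fit (−1.29 and −0.85). Of the rod list, 10 were apart downwards and 0 upwards, with 0 called by edgeR (0 up and 6 down at an unadjusted p under 0.05) and 2 down in DESeq2.

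Cone genes went both ways. Of 27 tested, 0 rose and 1 (opn1mw3) fell in edgeR, 1 rose and 3 fell in DESeq2, and 2 up and 7 down had an unadjusted p under 0.05. The reduced fit called 10 up (37.0%) and 6 down (22.2%), beside 9.76% and 10.2% of all genes. Of the 10, 8 were lower in 16 hpl than in 8 hpl replicate 2, beside 1481 of 1964 risers over all genes. The blue opsin gene opn1sw2 stood at 118, 77.3 and 144 CPM at 8 hpl and 75.1, 39.1 and 53.6 CPM at 16 hpl (−1.02, adjusted p = 0.177), and gnat2, for cone transducin, at 271, 146 and 326 CPM at 8 hpl and 277, 146 and 228 CPM at 16 hpl (−0.19, adjusted p = 0.858). six7, for a cone homeodomain factor, stood at 24.1, 20.0 and 18.2 CPM at 8 hpl, 43.7, 21.1 and 33.1 CPM at 16 hpl and 98.2, 104 and 120.3 CPM at 0 hpl, with 16 hpl replicate 2 inside the 8 hpl range (0.65, adjusted p = 0.291). The rod and cone levels were lowest in 16 hpl replicate 2, where the ribosomal and cytokine lists were highest. The part of rod and cone RNA in the results above was not tested. For bipolar, amacrine, horizontal and ganglion cells edgeR called 0 markers of 22, 21, 11 and 18 with all libraries (4 up and 2 down, 0 and 1, 1 and 2, and 1 and 0 at an unadjusted p under 0.05). DESeq2 called 1 amacrine and 1 horizontal cell marker down and no others. For endothelial cells and pericytes, of 13 markers 5 were apart upwards and 0 downwards, and the summed level ran from 74 to 79.4 CPM at 8 hpl and from 98.1 to 124 CPM at 16 hpl. edgeR called 0 of the 13 with all libraries (3 up and 0 down at an unadjusted p under 0.05). DESeq2 called 1 up and 0 down, and in the reduced fit 3 rose and 1 fell.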

How the data were processed

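Per the submitters' processing notes, limma 3.24.15, edgeR 3.10.2, RSEM 1.2.22, Bowtie2 2.2.6, FastQC 0.10.1, cutadapt 1.4.2 and Trim Galore 0.2.7 were used with genome build Zv9. Per the labels' protocols, RNA (integrity number over 7.0) went into stranded single-end libraries. The authors deposited RSEM expected counts per gene, not normalized, FPKM called normalized by the table's name, and a table of log2 fold changes for 8 and 16 hpl. For that table, the header names neither the reference group nor the model.

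Expected counts were rounded and fitted with edgeR 4.0.16 in R 4.3.3 (filterByExpr by group, TMM, robust quasi-likelihood F test, two-sided, 1 fit of 9 libraries with 6 residual degrees of freedom, contrast 16 minus 8 hpl). Standard errors were taken as the size of the log2 fold change divided by the root of F. Log2 CPM used a prior count of 2. The reduced fit has 4 residual degrees of freedom. DESeq2 1.42.0, limma 3.58.1 and FPKM with pseudocounts of 0.1 and 1 were alternatives. The fit was also run on simulated data, and no result given here rests on that run. CPM levels are not scaled by gene length.

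Of the gene IDs, 12581 took a symbol from the authors' deposited table and 9741 from a gene name table, and 11415 had none. Gene lists, which overlap, and members were chosen with earlier results of these data known. Genes were named where they passed with all libraries, or stood on a list of 55 known regeneration and retina genes (given where they bear on a result). The other genes named, from the reduced fit or the lists, were chosen after their values were seen. Of that list, ccnd1 and glula have no test. Without strand or multi-mapping settings in the sources, near-identical copies stay uncertain.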

Additional observations from a re-analysis of the deposited data

How the results depend on the processing

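With edgeR on all 9 libraries, 20 genes differed, 12 up and 8 down. With edgeR, 0 genes were called in other fits: 0 up and 0 down in the fit of the 6 lesioned libraries only (1962 genes at an unadjusted p under 0.05), 0 and 0 with a replicate block in 9 libraries (2027), and 0 and 0 with a replicate block in the 6 lesioned libraries (1004). Leaving out each library in turn gave 0 to 677 genes, 0 to 225 up and 0 to 452 down, with 677 without 8 hpl replicate 2, 66 without 16 hpl replicate 2 and 0 without any other. DESeq2 called 668 (299 up, 369 down), the fit with no filter 44 (25 up, 19 down), and the fit without both number 2 libraries 4029 (1967 up, 2062 down). Without 8 hpl replicates 1 and 3 and 16 hpl replicate 2, which leaves 1 library at 8 hpl that is assumed to vary like the others, 98 genes were called (47 up, 51 down), 10 of the 20 among them. The 4 lesioned libraries numbered 1 and 3 alone, chosen after seeing the data, gave 4120 (2010 up, 2110 down). RLE or upper-quartile factors, voom, a stricter filter and FPKM gave 16 to 23 genes. The cause was not tested. All 20 genes kept their direction in each setting, which is close to given since they were picked on these libraries, and the median over all genes moved by at most 0.04.

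The replicate numbers were not taken as pairs: deviations from the group means correlated at −0.161, −0.425 and −0.267 for numbers 1, 2 and 3 between 8 and 16 hpl. Blocking on them lost every call (adjusted p of the 20 genes from 0.0982 to 0.196 in 9 libraries). With 11714633 expected counts, 16 hpl replicate 3 limits what low genes can show.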
